A study of Mus musculus with 8 samples.

Results

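The genes described here are 10 transcripts by which macrophages are recognised in tissue RNA: *Csf1r*, *Cx3cr1*, *C1qa*, *C1qb*, *C1qc*, *Cd68*, *Mrc1*, *F13a1*, *Fcgr3* and *Tyrobp*. They were chosen by symbol, and all 10 were found among the 53465 gene identifiers of the count table. Poly(A) RNA of heart ventricles from mouse embryos at E15.5 was sequenced in 4 libraries of each of 2 genotypes. The genotype called *Nrg1GOF* here is given in the labels as Rosa26Nrg-1;Nkx5.5-Cre, while the series title names the driver Nkx2.5-Cre. It carries an *Nrg1* transgene at the Rosa26 locus that a cardiac Cre driver switches on, so that cells of the cardiac lineage make extra neuregulin-1, a growth factor that acts on ErbB receptors. The other genotype is labelled WT, and no further allele or treatment is named for either group. The labels give 1 ventricle per replicate, and do not say which embryos share a litter, so the p-values below measure the spread between these samples.

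Macrophages are the main leukocytes of the embryonic heart. They descend from yolk sac progenitors and fetal monocytes, depend on signals through the receptor CSF1R, take up dying cells, and lie along the epicardium and the growing coronary vessels. The genes above cover different parts of their equipment: receptors for growth factor and chemokine (*Csf1r*, *Cx3cr1*), the recognition molecule of complement (*C1qa*, *C1qb*, *C1qc*), a receptor for antibody and a signalling adaptor (*Fcgr3*, *Tyrobp*), and proteins of lysosomes, endocytosis and clotting (*Cd68*, *Mrc1*, *F13a1*). In a bulk library, more cells of a type and more RNA per cell cannot be told apart.

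Library totals lay between 18754259 and 26786039 counts, except for *Nrg1GOF* library 4 with 8038641. A count of 3, taken as the lowest level a library could show, stood for 0.112 to 0.373 CPM (counts-per-million). Within WT, libraries 1 and 2 resembled each other, as did libraries 3 and 4, with a median chi-square statistic per gene of 1.03 and 0.869 against 2.66 to 3.13 for the other WT pairings. Counting noise alone gives 0.455, so none of these libraries was treated as a repeat of another. For markers whose fold depends on this split, values against each WT pair are given below. *Nrg1* was at 59.7 to 63.7 CPM in *Nrg1GOF* and at 3.07 to 4.47 CPM in WT, higher in the genotype with the transgene. The heart muscle gene *Myh7* averaged 17610 CPM in WT, and the leukocyte marker *Ptprc* at 5.52 to 6.94 CPM in *Nrg1GOF* and 2.18 to 3.15 CPM in WT.

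Macrophage marker transcripts were more abundant in *Nrg1GOF* ventricles than in WT. Of the 10 genes, 9 rose (edgeR quasi-likelihood test, adjusted p under 0.05) and none fell, where 15.9% of all 15580 tested genes rose and 12.8% fell (2474 and 1993 genes). Scaled by library total alone, 2874 genes rose and 1521 fell, and 9 of the 10 markers rose. Among genes within the same range of mean CPM, 17.5% rose. The median log2 fold change of the 10 genes was 0.97, against -0.01 over all tested genes. In 8 of the 10, every *Nrg1GOF* library was above every WT library, which was the case for 16.6% of all tested genes. Those 8 genes were called at a fold change over 1.5, where 8.07% of tested genes were. The gene that was not called was *F13a1*, and *Mrc1* was called with overlapping groups. The summed level of the 10 genes was 149, 154, 134 and 133 CPM across *Nrg1GOF* libraries 1 to 4, against 87.9, 86.9, 75.4 and 72.2 CPM across WT libraries 1 to 4. The sum was thus higher in each *Nrg1GOF* library than in any WT library, by 1.77 times on average.

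**Figure D1:**
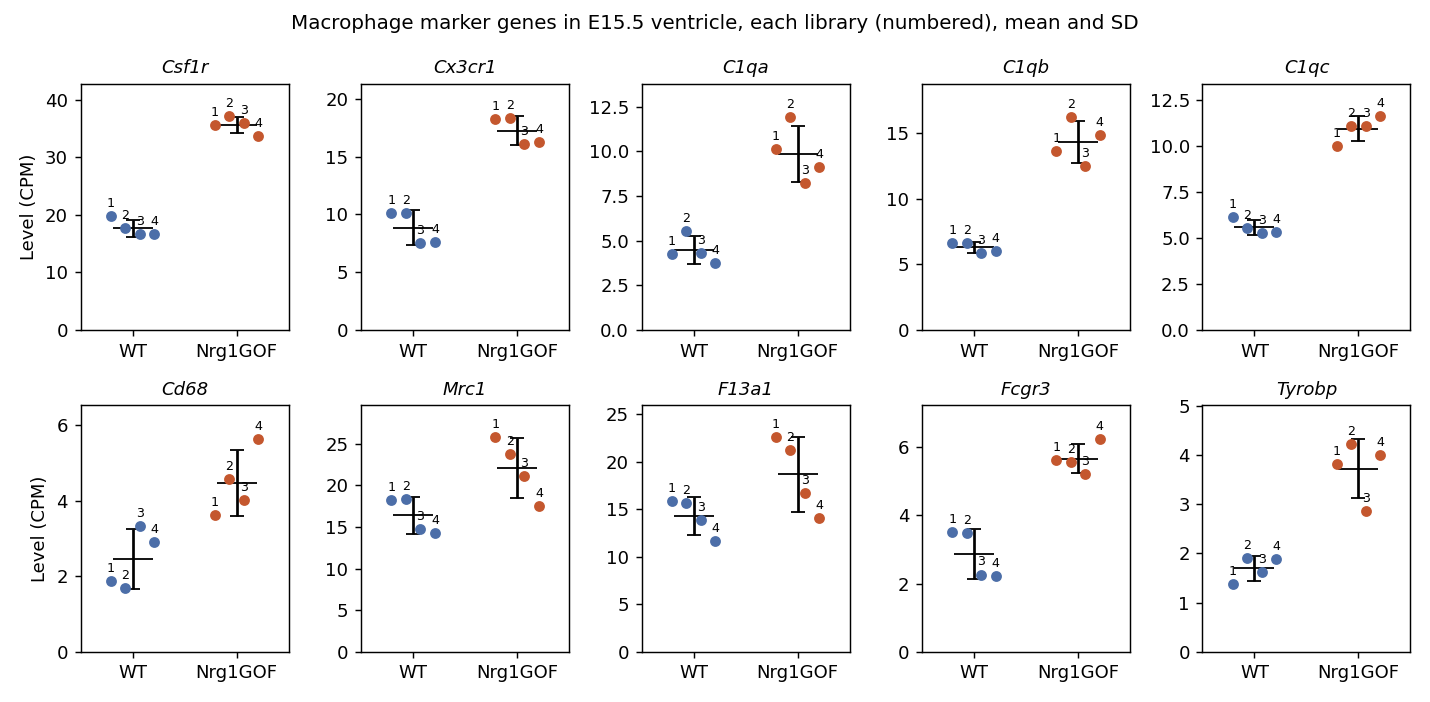
Level in CPM (y axis, from 0) of the 10 macrophage marker genes in each library, with WT in blue, *Nrg1GOF* in orange and the replicate number at each point. Horizontal bars are group means and whiskers the SD (n = 4). The groups are apart in 8 genes and overlap in *Mrc1* and *F13a1*.

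*Csf1r* encodes the receptor for colony-stimulating factor 1 and interleukin-34 (ENSMUSG00000024621, GRCm38 chromosome 18, 61100598 to 61132149, plus strand). It measured 35.6, 37.2, 36.0 and 33.6 CPM across *Nrg1GOF* libraries 1 to 4, against 19.8, 17.8, 16.6 and 16.6 CPM across WT libraries 1 to 4. The groups were far apart, with an SD of 1.46 CPM in *Nrg1GOF* and 1.49 CPM in WT around means of 35.6 and 17.7 CPM (n = 4 each). The log2 fold change was 1.01 (adjusted p = 1.97e-05, SE 0.07). The end of the gene lies opposite *Hmgxb3*, with 873 shared exonic bases, and how the counting treated strand was not given. *Hmgxb3* itself was at 46.1 ± 0.89 CPM in *Nrg1GOF* and 49.0 ± 1.61 CPM in WT (SD, n = 4 each), giving a log2 difference of -0.09 (adjusted p = 0.209).

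*Cx3cr1*, the receptor of the membrane-bound chemokine fractalkine (ENSMUSG00000052336, chromosome 9, 119901616 to 120069879), was at 18.3, 18.3, 16.1 and 16.3 CPM across *Nrg1GOF* libraries 1 to 4, against 10.1, 10.2, 7.48 and 7.58 CPM across WT libraries 1 to 4. The groups did not overlap, and within WT the first pair of libraries was above the second. The log2 fold change was 0.97 (adjusted p = 0.000422, SE 0.13), or 0.77 against WT libraries 1 and 2 alone and 1.21 against WT libraries 3 and 4 alone, both called.

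The ligands of these receptors were read out in the same tissue. *Csf1*, the main growth factor of macrophages, was at 23.1, 22.2, 24.3 and 21.4 CPM across *Nrg1GOF* libraries 1 to 4, against 15.6, 14.1, 14.4 and 11.5 CPM across WT libraries 1 to 4. It rose without overlap, with a log2 fold change of 0.71 (adjusted p = 0.000618, SE 0.10). *Il34*, the other ligand of CSF1R, had 0 to 9 counts per library and was too low to be tested. *Cx3cl1*, which encodes fractalkine, was at 14.2 ± 2.24 CPM in *Nrg1GOF* and 15.4 ± 1.31 CPM in WT (SD, n = 4 each), with a log2 fold change of -0.13 (adjusted p = 0.471, SE 0.12). Of the 2 ligands tested, the one for CSF1R therefore rose and the one for CX3CR1 did not pass the test.

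C1q, the molecule that starts the classical complement pathway, is built from equal numbers of 3 chains encoded side by side on chromosome 4: *C1qb* (ENSMUSG00000036905, 136880129 to 136886187), *C1qc* (ENSMUSG00000036896, 136889804 to 136893065) and *C1qa* (ENSMUSG00000036887, 136895917 to 136898803), all on the minus strand. *C1qa* was at 10.2, 11.9, 8.21 and 9.13 CPM across *Nrg1GOF* libraries 1 to 4, against 4.24, 5.56, 4.33 and 3.73 CPM across WT libraries 1 to 4. *C1qb* was at 13.7, 16.2, 12.5 and 14.9 CPM in *Nrg1GOF* and at 6.65, 6.66, 5.86 and 5.98 CPM in WT. *C1qc* was at 9.98, 11.1, 11.1 and 11.6 CPM in *Nrg1GOF* and at 6.15, 5.56, 5.26 and 5.33 CPM in WT. For each chain the lowest *Nrg1GOF* library was well above the highest WT library. The log2 fold change was 1.15 (adjusted p = 0.000695, SE 0.16) for *C1qa*, 1.18 (adjusted p = 7.31e-05, SE 0.11) for *C1qb* and 0.97 (adjusted p = 0.000135, SE 0.10) for *C1qc*.

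Scaled by exon length, the chains stood in the same order in both genotypes. That order depends on the exon lengths used. Without the scaling, *C1qc* averaged above *C1qa*, at 10.95 against 9.852 CPM in *Nrg1GOF* and 5.575 against 4.466 CPM in WT. *C1qb* made up 46.5 ± 1.11% of the summed CPM per kb of the chains in *Nrg1GOF* and 44.7 ± 1.72% in WT (SD, n = 4 each). *C1qa* made up 33.4 ± 2.59% and 33.0 ± 3.31%, and *C1qc* 20.2 ± 2.25% and 22.3 ± 1.66%. The share of *C1qb* differed between the genotypes by slightly more than either SD, that of *C1qc* by more than the SD in WT and less than that in *Nrg1GOF*, and that of *C1qa* by less than either, and no test was made of them.

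**Figure D2:**
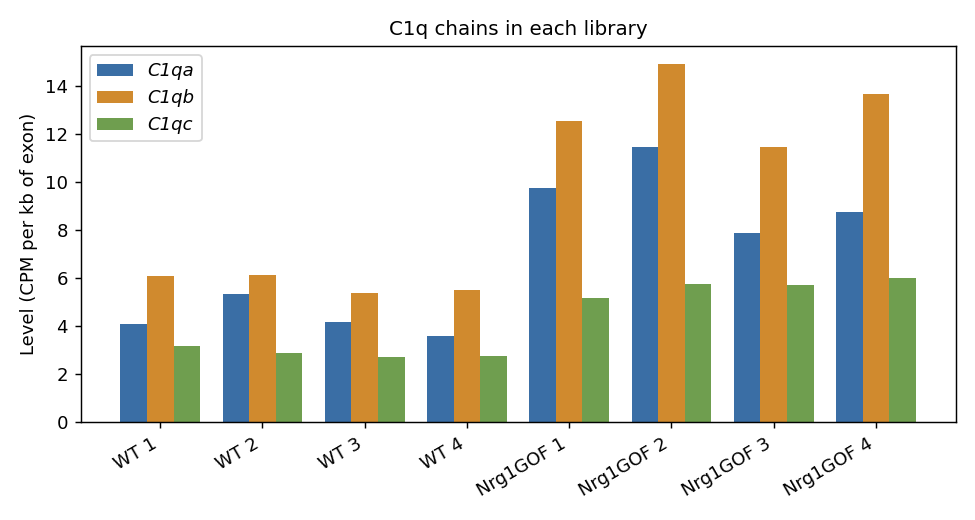
Level of *C1qa*, *C1qb* and *C1qc* in CPM per kb of exon (y axis, from 0) in each WT and *Nrg1GOF* library. *C1qb* is the highest and *C1qc* the lowest chain in all 8 libraries, and each chain is higher in every *Nrg1GOF* library than in any WT library.

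Promoter sequence is shown because the chains rose together. Promoter windows (250 bases before to 50 after the gene start, RefSeq, GRCm38.p6) were at hand for 7 of the 10 marker genes, without *C1qa*, *Csf1r* and *Tyrobp*. They were searched on both strands for GGAAGT, the core bound by the macrophage factor PU.1 (*Spi1*) and other ETS factors. The 250 bases before the start of *C1qb*, the chain with the highest level, are written 5′ to 3′ on the strand of the gene, with the match in capitals. The match lies on the opposite strand and therefore reads ACTTCC.

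C1qb, chr4:136886201-136886450, minus strand: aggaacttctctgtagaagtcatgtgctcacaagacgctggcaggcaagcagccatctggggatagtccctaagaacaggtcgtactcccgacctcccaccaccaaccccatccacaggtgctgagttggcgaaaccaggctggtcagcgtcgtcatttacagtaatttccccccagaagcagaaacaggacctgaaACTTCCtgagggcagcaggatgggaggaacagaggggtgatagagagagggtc

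GGAAGT was found in 5 of the 9 windows of these genes, belonging to 5 of the 7 genes, and in 23.8% of the 32851 promoter windows of the genome table. The longer form GAGGAAGT, which contains it, was found in 2 of the 9 windows, of 2 genes, and in 3.2% of all windows. The matches of the other 4 genes, *C1qc* among them, are given with 12 bases on either side, again on the strand of the gene and with the match in capitals. *F13a1* has 2 annotated starts, and both of its matches belong to the window of the same start.

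C1qc, chr4:136893092-136893121, minus strand: gggacggcagacACTTCCtcattttggcac
Mrc1, chr2:14229191-14229220, plus strand: tcacttctccccACTTCCtgcgttttctcc
Cd68, chr11:69666142-69666171, minus strand: attttagttaagGGAAGTgaggcttttcat
F13a1, chr13:37049231-37049260, minus strand: tgggagccgttaGGAAGTtatttaagagcc
F13a1, chr13:37049180-37049209, minus strand: gagtccttttgaGGAAGTacccagaggcac

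The 2 genes without the letters were *Cx3cr1* and *Fcgr3*. A match is a description of the letters and not of binding.

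The nearest tested protein-coding genes outside the C1q cluster did not move as one. *Ephb2*, on the side of *C1qb*, rose with a log2 fold change of 1.32 (adjusted p = 0.000566, SE 0.18), and *Zbtb40*, on the side of *C1qa*, fell by 0.35 on the log2 scale (adjusted p = 0.0226, SE 0.10). Neighbours of all 10 marker genes were taken as the nearest tested protein-coding genes that did not overlap the marker. Overlapping genes, such as *Hmgxb3* at *Csf1r*, were thus left out. Of these 16 neighbours, 5 rose and 3 fell, with a median log2 fold change of 0.19, where 15.9% and 12.8% of all tested genes did. The neighbours *Fcgr4* and *Ly86* are themselves expressed by macrophages.

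Of 9 other complement genes listed as partners of C1q, 6 rose and none fell, where 15.9% of all tested genes rose. *C3ar1* and *C5ar1*, receptors on myeloid cells for the fragments released when complement is activated, had log2 fold changes of 1.23 (adjusted p = 0.000735, SE 0.17) and 1.31 (adjusted p = 0.00444, SE 0.26). The protease gene *C1ra*, whose product joins C1q in the C1 complex, went from 0.83 ± 0.18 CPM (WT) to 1.93 ± 0.43 CPM (*Nrg1GOF*, SD, n = 4 each, log2 fold change 1.23, adjusted p = 0.00599). Its partner *C1s1* was at 0.25 to 1.43 CPM in all libraries and did not pass the test (adjusted p = 0.982). *C4b* had 4 to 29 counts per *Nrg1GOF* library and 1 to 5 per WT library. It passed the test (adjusted p = 0.00226), but a near-identical gene copy and the few counts make its level uncertain. The inhibitor *Serping1* (log2 fold change 0.61, SE 0.08, adjusted p = 0.00035), which is also made by stromal cells, rose as well.

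*Fcgr3*, a low-affinity receptor for immunoglobulin G (ENSMUSG00000059498, chromosome 1, 171051174 to 171064935), was at 5.63, 5.57, 5.22 and 6.25 CPM across *Nrg1GOF* libraries 1 to 4, against 3.52, 3.49, 2.27 and 2.21 CPM across WT libraries 1 to 4. The groups did not overlap, and the WT pairs differed by 1.57 times. This was a log2 fold change of 0.98 (adjusted p = 0.00417, SE 0.19). It was 0.68 (adjusted p = 0.0233) with WT libraries 1 and 2 alone and 1.33 (adjusted p = 0.000933) with WT libraries 3 and 4 alone. In 1 random draw that thinned all libraries to the smallest total it was 0.52 (adjusted p = 0.135). Of the 60-base words of *Fcgr3* transcripts, 7.85% also occur in *Fcgr2b*, an inhibitory Fc receptor, so some of its reads could be shared. *Fcgr2b* was at 1.11 ± 0.31 CPM in *Nrg1GOF* and 1.19 ± 0.35 CPM in WT (SD, n = 4 each, log2 fold change -0.04, adjusted p = 0.944).

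*Tyrobp* encodes the adaptor DAP12, through which receptors without a signalling tail of their own activate the kinase SYK (ENSMUSG00000030579, chromosome 7, 30413760 to 30417585). It measured 3.81, 4.24, 2.87 and 4.00 CPM across *Nrg1GOF* libraries 1 to 4, against 1.38, 1.91, 1.62 and 1.89 CPM across WT libraries 1 to 4. The groups were apart, and these values rest on 32 to 89 counts per library. The log2 fold change was 1.13 (adjusted p = 0.00227, SE 0.20), and 0.97 (adjusted p = 0.0772) after the same thinning.

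Of 14 further Fc receptors, adaptors and signalling genes, 11 were tested, 7 rose and 1 fell, against 15.9% and 12.8% of all tested genes. *Trem2*, a lipid receptor that signals through DAP12, had a log2 fold change of 1.35 (adjusted p = 0.00451, SE 0.27). *Fcer1g*, the chain that carries the signal of FCGR3, had 1.10 (adjusted p = 0.00582, SE 0.23). The Fc receptors *Fcgr1* and *Fcgr4* rose with log2 fold changes of 1.15 (SE 0.24) and 1.46 (SE 0.45). The phosphatase gene *Ptpn6* and the phospholipase gene *Plcg2* rose with 1.03 and 0.56. *Syk* was the gene that fell, from 39.5 ± 1.73 CPM (WT) to 27.2 ± 1.24 CPM (*Nrg1GOF*, SD, n = 4 each, log2 fold change -0.54, SE 0.06, adjusted p = 0.00015). Its WT level was above that of every marker, the highest being *Csf1r* at 17.7 CPM. Which cells its RNA came from was not tested.

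*Cd68*, a glycoprotein of lysosomes (ENSMUSG00000018774, chromosome 11, 69664213 to 69666153), was at 3.63, 4.57, 4.02 and 5.63 CPM across *Nrg1GOF* libraries 1 to 4, against 1.87, 1.69, 3.32 and 2.91 CPM across WT libraries 1 to 4. The groups came within 0.314 CPM of each other, and it was the marker for which WT libraries 3 and 4 were above WT libraries 1 and 2. *Nrg1GOF* exceeded WT by a log2 fold change of 0.84 (adjusted p = 0.0298, SE 0.25), on 31 to 96 counts per library. It was 1.29 against WT libraries 1 and 2 alone, and 0.50 (adjusted p = 0.121) against WT libraries 3 and 4 alone. The call was also lost without *Nrg1GOF* library 2 (0.82, adjusted p = 0.0751), without *Nrg1GOF* library 4 (0.74, adjusted p = 0.0639), without WT library 1 (0.72, adjusted p = 0.0707) and without WT library 2 (0.70, adjusted p = 0.0619).

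*Mrc1*, the mannose receptor of tissue macrophages and of some endothelial cells (ENSMUSG00000026712, chromosome 2, 14229392 to 14332057), was at 25.9, 23.8, 21.1 and 17.5 CPM across *Nrg1GOF* libraries 1 to 4, against 18.3, 18.4, 14.7 and 14.3 CPM across WT libraries 1 to 4. *Nrg1GOF* library 4 lay below WT libraries 1 and 2, so the groups overlapped. The log2 fold change was 0.44 (adjusted p = 0.0306, SE 0.13). It was 0.28 (adjusted p = 0.202) against WT libraries 1 and 2 alone and 0.63 against WT libraries 3 and 4 alone. The call was lost without *Nrg1GOF* library 1 (0.36, adjusted p = 0.0897), *Nrg1GOF* library 2 (0.40, adjusted p = 0.0953), WT library 3 (0.39, adjusted p = 0.0831) or WT library 4 (0.38, adjusted p = 0.086).

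*F13a1* encodes the A chain of clotting factor XIII, which macrophages and megakaryocytes make (ENSMUSG00000039109, chromosome 13, 36867178 to 37050244). It was at 22.6, 21.3, 16.7 and 14.1 CPM across *Nrg1GOF* libraries 1 to 4, against 15.9, 15.7, 13.9 and 11.7 CPM across WT libraries 1 to 4. *Nrg1GOF* libraries 1, 2 and 3 were above all WT libraries, *Nrg1GOF* library 4 lay below WT libraries 1 and 2, and the log2 fold change of 0.40 (SE 0.15) did not pass the test (adjusted p = 0.0804). With the replicate number as a block it was 0.38 (adjusted p = 0.0126), though these numbers were not shown to pair the samples. It was 0.26 (adjusted p = 0.352) with WT libraries 1 and 2 alone, 0.57 (adjusted p = 0.0512) with WT libraries 3 and 4 alone, and 0.51 (adjusted p = 0.0275) without *Nrg1GOF* library 4. Without that library 9 of the 10 markers rose, with *F13a1* in and *Cd68* out, where 15.3% of all tested genes rose. After thinning 7 rose, where 14% of tested genes did. The difference in response between *Mrc1* or *F13a1* and the other markers was not tested.

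**Figure D3:**
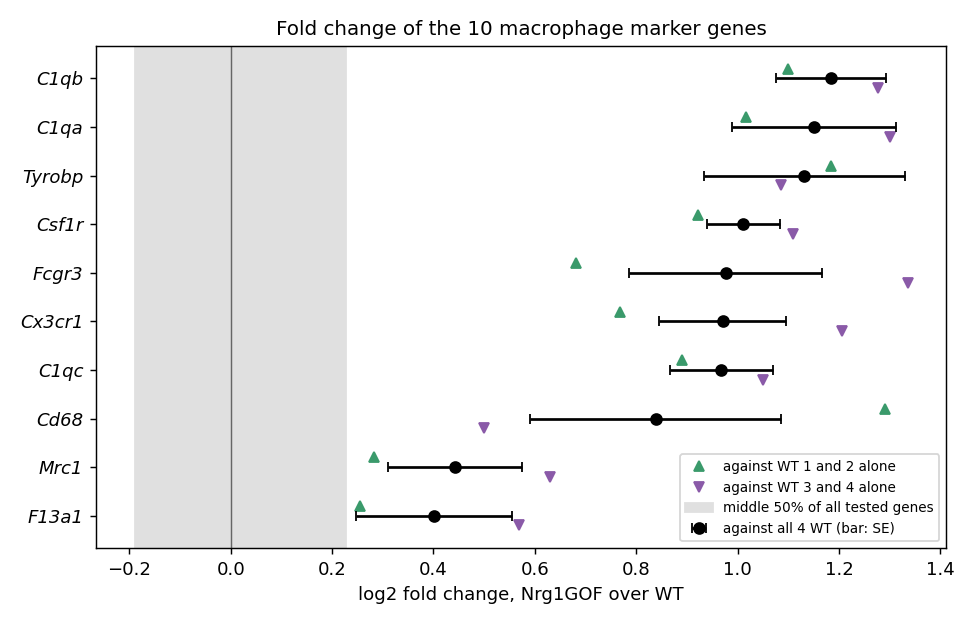
Log2 fold change of *Nrg1GOF* over WT (x axis) for each of the 10 marker genes, with the SE as a bar (black, 4 against 4 libraries) and the value against each WT pair as a triangle. The grey band holds the middle 50% of all tested genes, from -0.19 to 0.23, and all 30 points lie above it.

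Within WT, 7 of the 10 markers were higher in both libraries 1 and 2 than in libraries 3 and 4, a pattern shown by 30.6% of all tested genes. *Cd68* had the opposite order, and *C1qa* and *Tyrobp* overlapped. The same libraries differed in transcripts of blood and stroma. The summed level of 12 red blood cell genes averaged 12660 CPM in WT libraries 1 and 2 and 4986 CPM in WT libraries 3 and 4, with 5459 to 8927 CPM in *Nrg1GOF*. The sum of 9 fibroblast and epicardial genes averaged 4462 and 3345 CPM in the WT pairs. The part of either in the marker levels was not tested. When WT libraries 1 and 2 or WT libraries 3 and 4 served alone as WT, 8 of the 10 markers rose in each case, where 10.5% and 16% of all tested genes rose. With each WT pair summed to 1 sample 7 rose, where 9.58% of tested genes did (adjusted p = 0.088 for *Cd68* and 0.113 for *Mrc1*).

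The markers spanned a narrow range of levels per kb of exon. In WT, *C1qb* was the most abundant at 5.78 ± 0.39 CPM per kb (SD, n = 4), followed by *C1qa* at 4.29 ± 0.75, *Csf1r* at 3.06 ± 0.26 and *C1qc* at 2.89 ± 0.21. Next came *Mrc1* at 2.58, *Tyrobp* at 2.54, *F13a1* at 2.12, *Cx3cr1* at 1.96, *Cd68* at 1.95 and *Fcgr3* at 1.65 CPM per kb. From *Csf1r* downward each marker's WT libraries overlapped those of the next, so on this scale the order was clear for *C1qb*, *C1qa* and the rest as a whole. It depends on the exon lengths used, and in CPM *C1qc* averaged above *C1qa*, as given above. In *Nrg1GOF* the first 4 places were the same, at 13.2, 9.47, 6.16 and 5.67 CPM per kb. *Tyrobp* followed at 5.59, *Mrc1* stood at eighth place with 3.47, and *F13a1* came last at 2.77 CPM per kb. There, *Tyrobp* was also apart from the next gene, *Cx3cr1* at 3.83 CPM per kb.

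A wider list held 44 other macrophage genes. Like the markers, it was chosen with earlier results of these data known. Of these 44 genes, 39 were tested, 31 rose and none fell, where 15.9% of all tested genes rose. All 39 log2 fold changes were above 0, with a median of 0.93. The summed level of the list was 426 to 477 CPM in *Nrg1GOF* and 274 to 287 CPM in WT. The strongest rises were those of *Clec4n*, a lectin for fungal sugars (log2 fold change 1.82, SE 0.31), *Siglec1*, a sialic acid receptor (1.61, SE 0.29), *Fcna*, a secreted lectin of the complement system (1.57, SE 0.30), and *Cd14*, the co-receptor for bacterial lipopolysaccharide (1.55, SE 0.35), with adjusted p from 0.00181 to 0.00895. These were low, none above 2.81 CPM on average in *Nrg1GOF*.

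The abundant genes of the list rose too. The lysozyme gene *Lyz2* went from 16.8 ± 1.61 CPM (WT) to 38.8 ± 4.87 CPM (*Nrg1GOF*, SD, n = 4 each), with a log2 fold change of 1.20 (adjusted p = 5.94e-05, SE 0.10). The transcription factor gene *Maf* rose from 17.6 ± 3.24 to 33.4 ± 3.0 CPM (log2 fold change 0.93, adjusted p = 0.000649). *Lcp1*, an actin-bundling protein of leukocytes, had a log2 fold change of 0.55 (SE 0.08). *Stab1*, a scavenger receptor shared by macrophages and endothelium, was the most abundant, at 97.4 ± 2.33 CPM (WT) and 123 ± 5.62 CPM (*Nrg1GOF*, SD, n = 4 each, log2 fold change 0.33, SE 0.05, adjusted p = 0.00107).

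Of the 39 tested genes, 8 did not pass. Singled out after their values were seen, *Lyve1*, a hyaluronan receptor of resident macrophages and lymphatic vessels, had a log2 fold change of 0.10 (adjusted p = 0.596, SE 0.12), *Pf4* of 0.26 (SE 0.20) and *Cd163* of 0.21 (SE 0.42). The chemokine gene *Pf4* is also made by megakaryocytes. Whether their response differed from that of the markers was not tested. *Folr2*, *Vsig4*, *P2ry13*, *Ccl24* and *Cbr2* were too low to be tested.

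**Figure D4:**
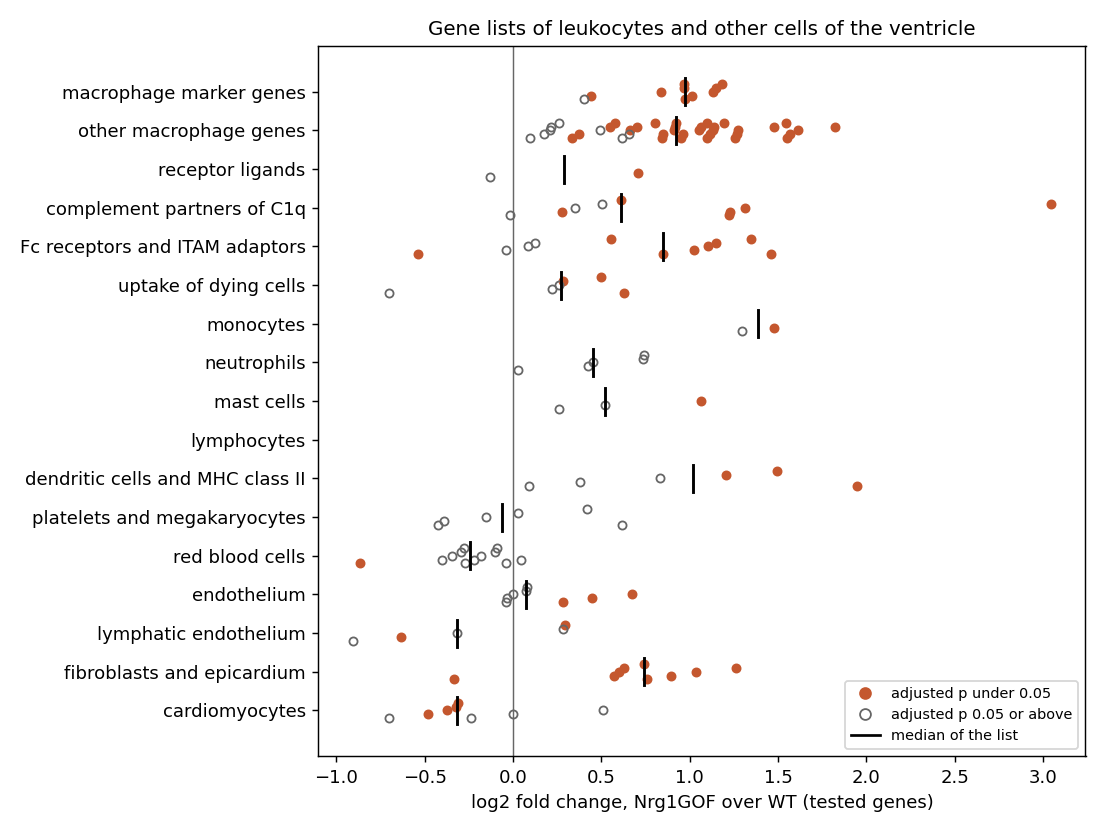
Log2 fold change of *Nrg1GOF* over WT (x axis) for the tested genes of each list, with filled points for adjusted p under 0.05, open points for the others and a black line at the median of the list. The medians of the marker genes and of the other macrophage genes are 0.97 and 0.93. That of neutrophil genes is 0.45 and that of platelet genes is -0.06, and no lymphocyte gene was high enough to be tested.

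Of 6 tested genes for the uptake of dying cells, 3 rose and none fell, where 15.9% of all tested genes rose. Their median log2 fold change was 0.27. The receptor *Axl* had a log2 fold change of 0.63 (adjusted p = 8.08e-05, SE 0.06), the bridging protein *Mfge8* of 0.50 (adjusted p = 0.000254, SE 0.06) and the ligand *Pros1* of 0.28 (adjusted p = 0.0169, SE 0.07). *Axl* and *Mfge8* stood at 81.1 and 159 CPM in WT, far above the markers, and are also expressed by stromal and vascular cells.

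Lists of other blood cells were then compared. For monocytes, *Ccr2*, a chemokine receptor by which they leave the blood, was at 7.03, 6.0, 5.09 and 8.5 CPM across *Nrg1GOF* libraries 1 to 4, against 2.25, 1.80, 1.98 and 3.36 CPM across WT libraries 1 to 4. It rose without overlap, with a log2 fold change of 1.48 (adjusted p = 0.0013, SE 0.23). The other tested gene of that list, *Plac8*, did not pass (adjusted p = 0.0814), and *Ly6c2* and *Chil3* were at 4 counts or fewer in every library. The list summed to 6.76 to 9.75 CPM in *Nrg1GOF* and 2.40 to 3.93 CPM in WT. Of 6 tested genes of dendritic cells and antigen presentation, 3 rose, against 15.9% of all tested genes. They were *H2-Aa* (log2 fold change 1.95, SE 0.44), *H2-Ab1* (1.21, SE 0.28) and *Cd74* (1.5, SE 0.24), which build and guide MHC class II. *Cpa3*, a protease of mast cells, rose from 3.34 ± 0.46 to 7.02 ± 0.92 CPM (SD, n = 4 each, log2 fold change 1.06, SE 0.16, adjusted p = 0.000883), as 1 of 3 tested mast cell genes.

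Neutrophil, platelet and lymphocyte genes gave no call, but the neutrophil and lymphocyte lists were so low that a rise could have been missed. All 5 tested neutrophil genes had log2 fold changes above 0, with a median of 0.45. The summed level in *Nrg1GOF* averaged 1.505 times that in WT for neutrophil genes, 1.955 times for lymphocyte genes and 1.01 times for platelet genes. None of 5 tested neutrophil genes passed, the list summed to 2.90 to 5.75 CPM in *Nrg1GOF* and 1.45 to 5.18 CPM in WT, and *Ly6g* was at 0. Within it, *S100a9* was at 1.01 ± 0.36 CPM in *Nrg1GOF* and 0.58 ± 0.17 CPM in WT (SD, n = 4 each, adjusted p = 0.162) and *Ltf* at 0.92 and 0.62 CPM. None of 6 tested platelet and megakaryocyte genes passed, with log2 fold changes of 0.03 (SE 0.16) for *Itga2b* and -0.42 (SE 0.37) for *Ppbp*. None of the 8 lymphocyte genes was high enough to be tested. Their summed level was 0.625 to 1.41 CPM in *Nrg1GOF* and 0.273 to 0.809 CPM in WT, with *Cd79b* and *Il7r*, genes of B cells and lymphoid progenitors, as the highest at no more than 17 and 12 counts, and *Cd3e*, a chain of the T cell receptor complex, was at 0 counts in all libraries. Of 12 red blood cell genes, none rose and 11 did not pass the test, with a median log2 fold change of -0.24.

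Transcripts typical of cells of the wall also differed between the genotypes, beside each rise given above. Over all tested genes, 15.9% rose and 12.8% fell. All 9 fibroblast and epicardial genes were called, 8 higher and 1 lower (*Tbx18*, a transcription factor of the epicardium, at -0.33, named after its value was seen), with a median log2 fold change of 0.74. Their summed level was 5880 to 7617 CPM in *Nrg1GOF* and 3329 to 4465 CPM in WT, or 1.70 times as high on average. Most of the sum came from the matrix genes *Col3a1*, *Col1a1* and *Postn*, at 2635, 2168 and 1235 CPM on average in *Nrg1GOF*. *Tcf21*, a transcription factor of epicardial and fibroblast cells, had a log2 fold change of 1.26 (adjusted p = 1.08e-05, SE 0.08), and the growth factor receptor *Pdgfra* of 1.04 (SE 0.15). The matrix genes *Postn*, *Col1a1*, *Col3a1* and *Dcn* had 0.90, 0.76, 0.74 and 0.63. Of 8 cardiomyocyte genes, 4 fell and none rose, with log2 fold changes of -0.48 for the myosin gene *Myh7*, -0.37 for *Tnni3* and -0.32 for *Tnnt2*, which encode troponins, and -0.31 for the light chain gene *Myl3*. The list summed to 35000 to 41960 CPM in *Nrg1GOF* and 44130 to 45250 CPM in WT.

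Among 8 endothelial genes, *Emcn* (0.67, SE 0.08), *Tek* (0.45, SE 0.07) and *Tie1* (0.28, SE 0.06) rose on the log2 scale and the other 5 did not pass, where 28.7% of all tested genes were called in either direction. The sum of the list was 1208 to 1260 CPM in *Nrg1GOF* and 1109 to 1176 CPM in WT. Among 5 genes of lymphatic endothelium, *Flt4* rose by 0.30 (SE 0.05) and *Prox1*, which heart muscle also expresses, fell by 0.64 on the log2 scale (SE 0.09), with a summed level of 158 to 181 CPM in *Nrg1GOF* and 188 to 229 CPM in WT. The part of these cell types in the levels of the macrophage markers was not tested.

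Finally, the variation of the markers within each genotype was compared with that of every other tested protein-coding gene. The mean standardised profile of the 10 markers was highest in *Nrg1GOF* library 2 and in WT libraries 1 and 2, and lowest in *Nrg1GOF* library 3 and WT libraries 3 and 4. The genes with the smallest root mean square difference from this profile over the 8 libraries were *Pard3* (0.108), *Papola* (0.200), *Fmo5* (0.207), *Selenos* (0.211) and *Zfp521* (0.215), where the median of all tested genes was 1.28. The markers themselves lay between 0.392 for *Cx3cr1* and 1.68 for *Cd68*. Of the 5 genes, *Selenos* rose (log2 fold change 0.51, SE 0.09, adjusted p = 0.00223) and the others did not pass the test. All 5 lay closer to the profile than any marker did. They are the smallest differences among all tested protein-coding genes, and how small these would be by chance was not worked out. They are therefore not shown to follow macrophages.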

How the data were processed

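RNA of 4 *Nrg1GOF* and 4 WT ventricle samples (grouped by title) was sequenced from a directional poly(A) kit as single reads of 60 bases. The authors deposited expected counts per gene from RSEM 1.3.1 on GRCm38 with Ensembl release 91, not scaled for depth or length. Cutadapt is also named in the submitters' processing notes, and the aligner and strand setting were not given in the sources used here. RSEM shares out reads that fit several genes, which left 8.42% to 13.2% of a library's values not whole.

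Counts were rounded, filtered with filterByExpr, scaled by TMM and tested with genotype as the sole term in edgeR 4.0.16 (quasi-likelihood F-test, two-sided, R 4.3.3). P-values were adjusted by Benjamini-Hochberg over 15580 genes, and called means an adjusted p under 0.05. Each SE was taken from the size of the log2 fold change over the root of its F statistic. CPM was computed on the TMM-scaled total, and per kb of the union of exons in GENCODE M21 (GRCm38). Symbols were found for 53360 of 53465 identifiers. On simulated data, 77 of 100 genes changed by 1 and 99 of 100 changed by 2 on the log2 scale were recovered, with 12 false among 188 calls. Floors of 3 counts cover counting error only.

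The markers and lists were chosen with earlier results of these data known. Named by rule were the markers, *Nrg1*, the ligands, the called genes of each list (where over 8 were called, the 4 most changed and the 4 most abundant, and where none was, the 2 most abundant) and the 5 genes of closest profile (log2 CPM with prior count 2, centred within genotype and scaled). Other genes were named after their values were seen. Some genes that the rule names are not reported here. Equal replicate numbers deviated together at correlations of 0.129, 0.049, 0.199 and 0.067 and were not treated as pairs. Alternatives were DESeq2 1.42.0, limma-voom (limma 3.58.1), a likelihood ratio test, other scalings, filters and thresholds, a replicate block, thinning, summed or single WT pairs, and leaving out each library.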

Additional observations from a re-analysis of the deposited data

Results flagged for a closer look

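Of 26 groups of 4 values (the 10 marker genes, their sum, *Nrg1* and the library totals in each genotype), 1 held an outlying library by Dixon's test, where chance at 1 in 20 gives 1.3. The total of *Nrg1GOF* library 4, 8038641 counts, lay apart from the other *Nrg1GOF* totals of 20578081 to 22547833, with a gap of 0.864 of the range. This library was the lowest *Nrg1GOF* library for *Csf1r*, *Mrc1* and *F13a1* and the highest for *Cd68*, *C1qc* and *Fcgr3*. Without it, 9 of the 10 markers rose, where 15.3% of all tested genes did, but they were not the same 9: *Cd68* was lost (edgeR adjusted p = 0.0639) and *F13a1* was gained (adjusted p = 0.0275).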

How the results depend on the processing

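Alternatives gave 541 values, of which 516 counted as unchanged. For a gene this meant the same direction and side of the threshold, and for a count a value within 1.5 times the reported one. The summed marker level had to stay within its pooled SD of 0.127 on the log2 scale. The median of all tested genes had to stay within a small margin, whatever its sign. No gene or summed level reversed. The median log2 fold change of all tested genes, -0.012, was above 0 with library totals alone (0.033) and against WT libraries 1 and 2 (0.008) or 3 and 4 (0.001) alone. *Csf1r*, *Cx3cr1* and the 3 C1q genes were called under all 23 alternatives, with log2 fold changes from 0.77 to 1.3. Over all genes, 2464 were called with the WT pairs summed and 2535 at an adjusted p under 0.01, against 4467. Leaving out each library in turn gave 3239 to 4261 genes over all (1869 to 2426 of them higher), 7 to 9 markers, 27 to 31 other macrophage genes and a log2 ratio of the summed marker level of 0.77 to 0.87 (0.82 with all 8 libraries). The replicate block gave 4524 genes, 10 markers (15.4% of all tested genes rose) and 29 other macrophage genes, with *F13a1* called at 0.38 (adjusted p = 0.0126). The adjusted p of *Cd68* lay between 0.00782 and 0.121, that of *Mrc1* between 0.00523 and 0.202 and that of *F13a1* between 0.0126 and 0.352, and the causes were not tested. The numbers shared by replicates were not shown to pair the samples. Thinning to the smallest total (1 random draw) left 7 markers (14% of all tested genes rose) and 24 other macrophage genes. Scaling by library total alone left 9 markers called, with 2874 genes higher and 1521 lower over all against 2474 and 1993.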
